A study of Mus musculus with 18 samples.

Results

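Basophils taken directly from mice were compared with basophils that had spent 5 days in culture. The comparison used 6 of the 18 arrays of the series, 3 for each group, and covered every probe. Both groups were of the C57Bl/6 strain. Fresh basophils came from the bone marrow of mice given an immune complex of IL-3 (interleukin-3) and its antibody 3 days earlier, and no genotype was recorded for them. Cultured basophils carried Cebpa +/+ RosaYFP/creER, that is, unaltered alleles of Cebpa together with a reporter and a hormone-regulated recombinase at the Rosa locus. They were kept in complete Iscove's medium with IL-3 at 20 ng/ml and received no 4-hydroxytamoxifen, the ligand that switches the recombinase on. Whether these basophils also came from mice given the IL-3 complex, how the cells were purified, and the age and sex of the mice were not stated. The constructs, the preparation and the culture differ together between the groups and cannot be told apart. Other groups, also of 3 arrays each, are used where named: the same wild type cultures given 4-hydroxytamoxifen, called the drug below, at 100 nM for the 5 days, cultures of Cebpa f/f RosaYFP/creER basophils, called floxed, without or with the drug, and mast cells grown from bone marrow with IL-3 for 4 weeks. The series as a whole was made to compare basophils with mast cells and to find genes that depend on Cebpa. Whether replicates were separate animals or separate cultures is not stated, so each p-value reflects the variation among these 6 samples alone, part or all of which could be technical.

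Basophils are rare granulocytes that bind IgE through a high-affinity receptor and release histamine, lipid mediators and cytokines when that receptor is cross-linked. IL-3 is their main growth and survival factor. It signals through a shared receptor chain to the kinase JAK2 and the factor STAT5, and when given to mice as an antibody complex it expands basophils in the bone marrow. Cells removed from tissue often carry transcripts of immediate early genes, whose products include the AP-1 factors of the Fos and Jun families and which are induced within minutes by growth factors, stress or handling. Cells that are dividing carry transcripts of the replication and mitosis machinery, many of which are controlled through E2F sites, or through CCAAT boxes and the cell cycle homology region.

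Array medians lay between 36 and 42 intensity units and array means between 558.3 and 700.1, and 52.4% to 54.8% of probes exceeded 30 on an array. A probe under that limit on all 3 arrays of a group is called at background there, and a fold against such a group is given as a lower bound. Pearson's r across probes was 0.9907 to 0.9928 within groups and 0.9518 to 0.9557 between them. Over the 9685 probes brighter than 100, the median SD between arrays was 0.0877 log2 units in fresh and 0.0816 in cultured basophils. The number of arrays limits the precision. Levels below are quantile-normalized intensities, as mean ± SD with n = 3 arrays a group, fresh first. Differences are log2 fold changes, fresh minus cultured, ± SE on the log2(intensity + 16) scale, where dim genes show less than their true change. Higher, lower, rose and fell are written of genes past limma's test with Benjamini-Hochberg adjustment over 26423 probes at a threshold of 0.05. Each probe has its own response, so levels are compared between groups and not between genes.

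Of 19084 genes, 3845 were higher (20.1%) and 3816 lower (20%) in fresh than in cultured basophils, so that 40.1% passed the test. Counts in the gene lists below are to be read beside these shares. At least a 2-fold difference together with the test was reached by 1182 genes that were higher (6.19%) and 1053 that were lower (5.52%). The groups did not overlap for 51.6% of genes, and the median log2 fold change over all genes was -0.01. Among 12923 genes above background in at least 1 group, 28.1% were higher and 27.9% lower. For lists whose members are mostly above background, these are the closer shares. Quantile normalization sets equal distributions, and the split moved with the scaling. Over probes, 4719 were higher and 4719 lower (17.9% each, 35.7% together), and 10.1% passed at 2-fold or more. With median scaling in its place 5835 were higher and 3733 lower, without normalization between arrays 5790 were higher and 3140 lower, and with scaling on probes above background 4133 were higher and 6015 lower. Among the called genes, 70 differed at least 8-fold upwards and 82 downwards on this scale.

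**Figure D1:**
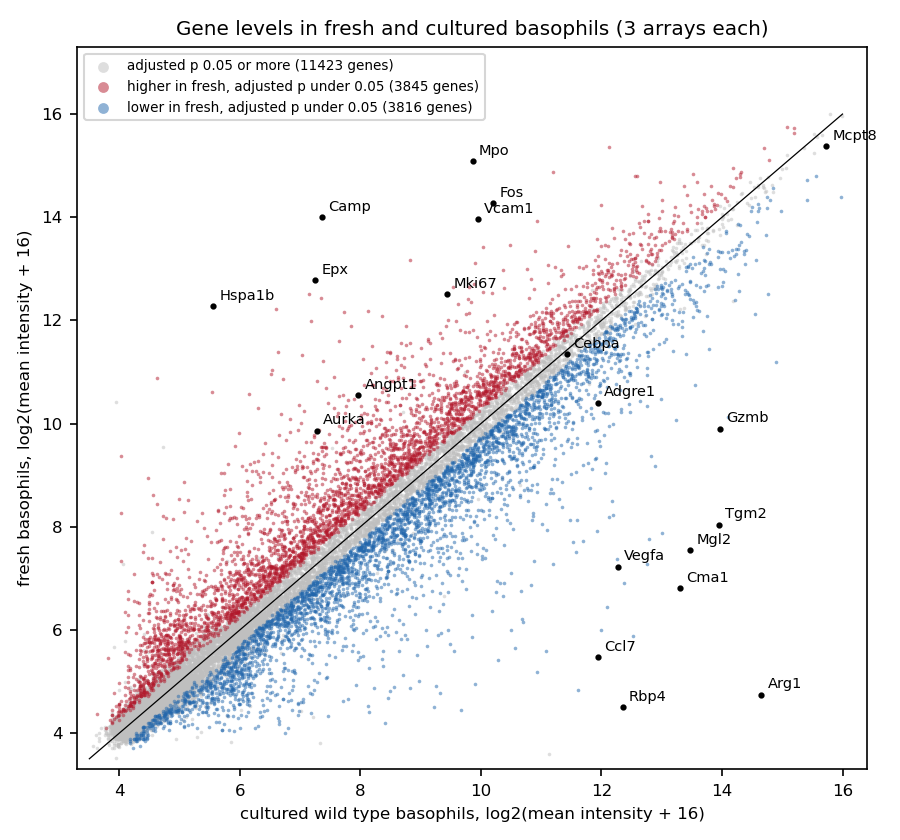
Level of each gene in cultured (x axis) and fresh basophils (y axis), as log2 of the mean intensity of 3 arrays plus 16. Red points are 3845 genes higher in fresh and blue points 3816 genes lower (adjusted p under 0.05); Fos, Camp and Hspa1b lie far above the diagonal and Arg1, Rbp4 and Ccl7 far below it, while Mcpt8 and Cebpa lie near it.

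The 15 genes with the highest fold changes in fresh basophils included heat shock and immediate early genes and granule genes of other myeloid cells, beside many of other kinds. Hspa1b, a stress-inducible HSP70 chaperone, read 5126, 4864 and 4800.2 on the fresh arrays and 34, 26.3 and 32.7 on the cultured arrays. Camp, the antimicrobial peptide of neutrophil secondary granules, read 15434, 16856 and 16856 against 149, 148 and 150.3. Epx, the eosinophil peroxidase, read 6489, 7347 and 7162 against 137, 148 and 124, and Mpo, the peroxidase of neutrophil primary granules, read 34867, 32877 and 36197 against 966, 911 and 866. All 15 were picked among called genes whose groups did not overlap, so that separation was set by the choice. The folds were 105-fold for Hspa1b, 99.4-fold for Camp, 46.1-fold for Epx and 37.3-fold for Mpo. The others were Hspa1a (at least 62.5-fold), Fosb (49.7-fold), Ifitm6 (41.5-fold), Jchain, the joining chain of secreted antibodies (at least 21.4-fold), Hmgn3, a nucleosome-binding protein (34.3-fold), Hpgd, which inactivates prostaglandins (34.2-fold), the histone gene H2ac6 (28.04-fold), the macrophage lectin Fcna (26.9-fold), the gelatinase Mmp9 (22.6-fold), the integrin chain Itgad (at least 15.8-fold) and the eosinophil granule gene Prg3 (21.7-fold).

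The 15 genes with the lowest fold changes, that is, those highest in culture, included enzymes, chemokines and granule proteases. Arg1, the arginase of alternatively activated myeloid cells, read 10.5, 10.3 and 11.5 on the fresh arrays, all at background, and 25762, 24899 and 26560 on the cultured arrays, a difference of at least 858-fold. Rbp4, a retinol carrier, was also at background on the fresh arrays and read 5328, 5252 and 5043 in culture (at least 174-fold). Mgl2, a lectin of dendritic cells and macrophages, read 170.3, 162 and 179.8 against 11576, 11041 and 11510 (61.004-fold), and the transglutaminase Tgm2 read 223, 272 and 245 against 16176, 15362 and 15633 (60.1-fold). These 15 were likewise picked among called genes whose groups did not overlap. The rest were the membrane glycoprotein Pdpn (at least 103-fold), the cholesterol hydroxylase Ch25h (99.2-fold), the chemokine Ccl7 (91.8-fold), the chymase Cma1 (89.6-fold), the granzyme Gzma (63.3-fold), the serotonin-synthesis enzyme Tph1 (at least 64.5-fold), the growth factor Bmp7 (49.96-fold), the secreted protein Retnla (44.9-fold), Igfbp5, which binds insulin-like growth factors (44.7-fold), the ectonucleotidase Nt5e (44.3-fold) and the tight junction protein Cldn11 (at least 26.6-fold). A second probe of Rbp4 was also lower and another was at background in both groups.

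**Figure D2:**
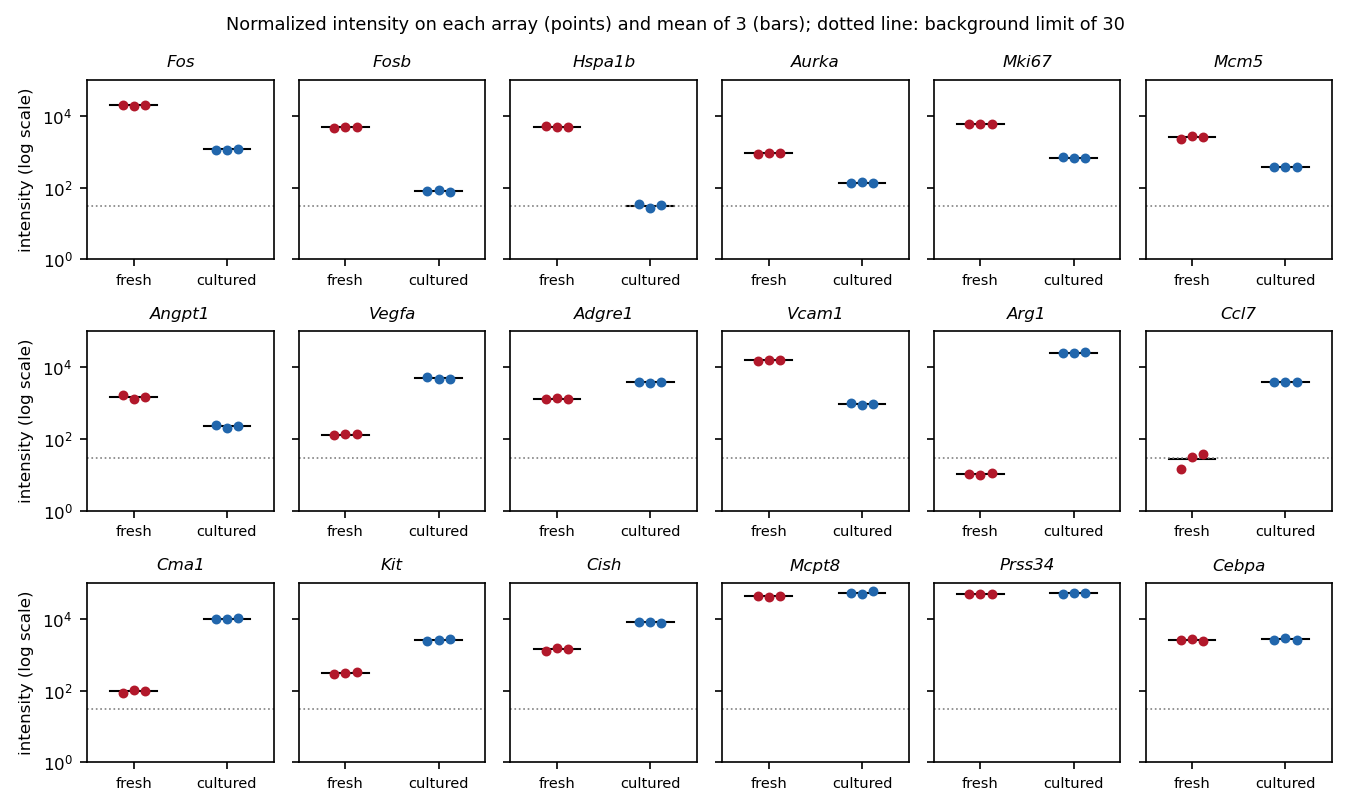
Normalized intensity (log axis) of 18 genes on each of the 3 fresh (red) and 3 cultured (blue) arrays; black bars are means of 3 arrays, and the dotted line is the background limit of 30. From Fos to Cish the arrays of the groups stand clearly apart, Mcpt8 and Prss34 lie close together, and Cebpa, in the last panel, overlaps.

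The labelled cell type was checked against 20 basophil markers, of which 7 were higher, 5 were lower and 8 did not pass, where 20.1% and 20% of all genes were higher and lower. Their median log2 fold change was -0.07. Prss34 and Mcpt8, the basophil proteases, were bright in both groups. Mcpt8 read 43177, 41829 and 43177 in fresh and 52607, 49640 and 60753 in cultured basophils (-0.34 ± 0.1; limma, adjusted p = 0.031). This small difference no longer passed under median scaling (-0.22), without normalization between arrays (-0.18), with the replicate number as a block (-0.34, adjusted p = 0.0525), or without any 1 of the arrays other than cultured array 2 (-0.36 to -0.27). Prss34 read 49067, 49640 and 49640 in fresh and 50455, 52607 and 52607 in cultured basophils (-0.07 ± 0.078, not past the test). The carboxypeptidase Cpa3 read 64181 against 64826, near the top of the scanner range, where a difference cannot be read. Gata2, a transcription factor of basophils and mast cells, read 11264 against 13263 (-0.24 ± 0.092, not past the test). Summed over the 20 markers, intensities were 345040 to 353330 on fresh and 360170 to 365150 on cultured arrays. Among the markers that did move, Il4, the type 2 cytokine, was 4.25-fold higher in fresh cells (1280.1 ± 237 against 286 ± 14.3), the integrin chain Itga2, part of the DX5 antigen, was 2.28-fold higher, and Il6 (3.67-fold) and Ifitm1 (4.26-fold) were higher in culture. The count of lower markers was 3 under median scaling or without normalization between arrays, 8 with scaling on probes above background and 9 with the drug-treated wild type as the cultured side.

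Cebpa, the transcription factor deleted elsewhere in the series, read 2579, 2757 and 2436 on the fresh arrays and 2635, 3009.7 and 2571 on the cultured ones. The groups overlapped, and the difference of -0.08 ± 0.099 did not pass limma's test (adjusted p = 0.6).

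Markers of other blood cells were higher on the fresh arrays in several lists, and these values stand beside every result below; their part in those results was not tested. In bulk samples, fewer cells of a type and less RNA per cell cannot be told apart. Of 18 neutrophil granule and maturation genes, 13 were higher and 2 lower, with a median of 1.96 (1.77 with genes at background taken at their bound). Their summed intensity was 129870 to 134230 on fresh and 42758 to 45345 on cultured arrays. Beyond Camp, Mpo and Mmp9, the secondary granule protein Ltf was 10.5-fold higher (11005 ± 361 against 1036 ± 66.6). Of the lower members, the chemokine receptor Cxcr2 moved furthest (1175 ± 29.04 against 5642 ± 273, 4.75-fold lower in fresh cells). Retnlg, a resistin-like gene of neutrophils, was bright in both groups and did not pass the test (14107 against 13889, 0.02 ± 0.081), and the S100a8 probe was at background on all 6 arrays. Of the 8 measured eosinophil markers 7 were higher and 1 was lower (0 lower without any 1 of the 6 arrays), with sums of 62105 to 64642 against 8430.3 to 9031. The granule protein Prg2 read 42059 ± 399.7 against 4436 ± 55.5 (9.45-fold) and the lipoxygenase Alox15 was 5.76-fold higher.

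Of 21 macrophage and monocyte markers, 14 were higher in fresh basophils and 5 lower, with a median of 0.58 and sums of 63064 to 64090 against 23612 to 25349. The median was 1.02 against drug-treated wild type cultures and 1.79 against floxed cultures, where 17 were higher and 3 lower, and 3 were also lower without normalization between arrays. Large increases were seen in genes known from tissue macrophages. Vcam1, an adhesion molecule of macrophages and stroma, read 15482, 16124 and 16176 against 1042, 909 and 956 (16.2-fold). The haemoglobin scavenger receptor Cd163 was 17.8-fold higher and Fcna 26.9-fold higher. Adgre1, the gene of the macrophage antigen F4/80, went the other way. It read 1340, 1374 and 1303 on the fresh arrays and 3963, 3717 and 4008 on the cultured arrays, without overlap, and was 2.89-fold lower in fresh basophils (-1.53 ± 0.082; limma, adjusted p = 5.58e-06). The scavenger receptor Marco was also lower (10.6-fold). Cd14 (214 against 201) and Axl (1404 against 1526) did not pass the test, although a second, dimmer probe of Axl was higher.

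Erythroid markers summed to 3018 to 3063 on fresh and 1109 to 1273 on cultured arrays, with 7 of 10 higher and 1 lower. Their median was 0.96, or 0.24 with genes at background taken at their bound. The globin gene Hbb-b1 was 10.1-fold higher, the haem-synthesis enzyme Alas2 at least 8.88-fold, the anion exchanger Slc4a1 at least 6.09-fold and the factor Klf1 3.76-fold, while Rhag and Trim10 were at background throughout. Megakaryocyte and platelet markers moved in the other direction, with 8 of 10 lower in fresh basophils and none higher, and a median of -0.92. The platelet chemokine Pf4 read 1700.1 ± 137 against 11977 ± 1031 (6.99-fold lower), Ppbp was 3.80-fold lower, Clec1b 2.32-fold and Itgb3 3.15-fold, while the Itga2b probe was at background on every array. Gp6 read 19.8 against 43.5 and did not pass, except at -1.31 without fresh array 3. With the floxed cultured basophils as the cultured side, 5 rather than 8 of these markers were lower.

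Several defining genes of lymphoid cells were at background. Of 11 B cell markers 4 were higher and none lower, and Ms4a1, Pax5, Ebf1 and Blnk were at background in both groups. The receptor chain Cd79b was 3.39-fold higher (1276 ± 110.1 against 365 ± 37.2), the surrogate light chain Vpreb1 1.84-fold and Cd22 1.82-fold, and Rag1 passed the test at levels under 30 (10.3 against 2.28). The call of Rag1 was lost at 0.41 to 0.54 without fresh array 1 or 2 or cultured array 1 or 2. Cd79a read 52.9 against 68.1 and Vpreb3 149 against 175, neither past the test. Of 13 T and NK cell markers 3 were higher and 4 lower, where 20.1% and 20% of all genes were. Cd4, Klrb1c, Ncr1 and Prf1 were at background. Nkg7, a granule membrane protein, was 21.7-fold higher in fresh cells (4577 ± 266 against 196 ± 17.1) and the T cell receptor component Cd3d 2.62-fold higher (56.8 against 14.2). Cytotoxic granzymes were higher in culture, Gzma at 48.1 ± 2.71 against 4043 ± 115 (63.3-fold) and Gzmb at 940.2 ± 46.7 against 15925 ± 599.6 (16.7-fold). Cd2 (69.9 against 36.5) and Cd8a (24.9 against 17.5) did not pass, although Cd2 did at 1.12 without cultured array 1.

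Of 30 immediate early and handling genes, 21 were higher in fresh basophils, 1 was lower and 8 did not pass, against 20.1% and 20% of all genes, and their median log2 fold change was 1.35. Fos, a subunit of AP-1, read 20246, 18425 and 20571 on the fresh arrays and 1131, 1117 and 1229 on the cultured arrays. The highest cultured array was well below the lowest fresh array, and the difference was 16.8-fold (4.07 ± 0.09; limma, adjusted p = 1.46e-07). Its relative Fosb read 4592, 4926 and 4809 against 78.5, 87.3 and 75.7 (49.7-fold). Klf2, a Krüppel-like factor of quiescent leukocytes, read 1828, 1361 and 1305 against 55.8, 50 and 58 (21.2-fold). The antiproliferative gene Btg2 was 15.6-fold higher, and a second probe of it was higher as well.

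The heat shock genes Hspa1a and Hspa1b are near-identical copies whose probes may share transcripts, so their values are not independent of each other. Hspa1a read 1851, 1908 and 1863 on the fresh arrays and was at background on all cultured arrays (at least 62.5-fold). Socs3, a feedback inhibitor of cytokine receptors that was singled out after its values were seen, was the member lower in fresh basophils (1508 ± 35.8 against 3478 ± 121, 2.29-fold). Nfkbia, the inhibitor of NF-kappaB, was bright in both groups (21548 against 24036) and did not pass the test. Ier3 read 12205, 7207 and 7647 and 7044, 5740 and 6476, a spread within the fresh group that left it short of the threshold. The promoter table held windows for 24 of these genes, 28 windows in all. A CArG box, the site of serum response factor, was found in 17.9% of the windows against 1.47% of all promoter windows. The cAMP response element TGACGTCA was found in 7.14% against 1.55%. The windows of Fos and Fosb, the 250 bases before the start, held no exact match to either pattern. Variant letters and sites further upstream were not searched, so the genes may still have such elements.

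Genes of mitosis and DNA replication stood higher in fresh basophils almost without exception. Of 24 mitosis and spindle genes, 23 were higher and none was lower, with a median of 2.51. Of 25 DNA replication genes, 23 were higher and none was lower, with a median of 1.90. At least 2-fold together with the test was reached by 21 genes of each list, where 6.19% of all genes did so in that direction. Aurka, a kinase of the spindle poles, read 871, 929 and 946 on the fresh arrays and 136, 145 and 134 on the cultured arrays (6.03-fold, 2.59 ± 0.084; limma, adjusted p = 5.90e-07). Mki67, the Ki-67 proliferation antigen, read 5764, 5784 and 5961 against 695, 652 and 683 (8.45-fold), and its second probe gave nearly the same fold change. The lowest fresh array exceeded the highest cultured array for both genes.

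The checkpoint kinase Bub1b was 8.95-fold higher (1190.1 ± 197 against 118 ± 12.7), the spindle assembly factor Tpx2 8.78-fold and the kinase Ttk 8.70-fold. Kif20a was at background in both groups and did not pass, and the probe of Cdk1, the mitotic kinase, passed at levels under 30 on all arrays. Among replication genes, Mcm5, a subunit of the replicative helicase, read 2217, 2774 and 2579 against 367, 386 and 372 (6.46-fold). The epigenetic regulator Uhrf1 was 6.70-fold higher, the ligase Lig1 6.19-fold and the ribonucleotide reductase subunit Rrm1 5.19-fold. Chaf1b (1206 against 984, past the test at 0.43 without fresh array 2) and the displayed probe of cyclin Ccne2 (116 against 90.8) did not pass, while a dimmer probe of Ccne2 was higher. The neutrophil, eosinophil and erythroid lists, which include genes of dividing precursors, were also higher on the fresh arrays, and which cells carried the mitotic transcripts was not tested.

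Of 15 inhibitors of the cell cycle and D cyclins 3 were higher and 4 lower, close to the 20.1% and 20% of all genes. The D cyclin Ccnd2, which growth factors induce, read 1116, 1208 and 1168 on the fresh arrays and 4107, 4566 and 4580.5 on the cultured ones (3.76-fold lower in fresh cells), and a second probe gave a like difference. Ccnd1 was 2.34-fold lower. The kinase inhibitor Cdkn1a, or p21, was 3.05-fold lower in fresh basophils (1064 ± 94.1 against 3269.9 ± 132). The growth regulator Myc was 2.30-fold higher. Ccnd3 was low on 1 of the fresh arrays (7088, 638 and 7371) and did not pass, nor did Ccng2 (4305 against 4406). A dimmer probe of Ccnd3 was higher in fresh cells (1619 against 1217.5).

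Promoters of the cell cycle genes are shown because so many members moved together. The windows are the 250 bases before the annotated start in RefSeq's GRCm38.p6 table, read 5′ to 3′ on the gene's strand, and matches on either strand were counted. In the window of Aurka (chr2:172370571-172370820, minus strand) and of Mki67 (chr7:135716380-135716629, minus strand), capitals mark CCAAT or its reverse complement ATTGG and the cell cycle homology region TTTGAA, of which Aurka's window holds no match. In the window of Mcm5 (chr8:75109259-75109508, plus strand), capitals mark the E2F letters TTTCGCGC or TTTGGCGC and their reverse complements, of which a pair overlaps, and CCAAT.
Aurka: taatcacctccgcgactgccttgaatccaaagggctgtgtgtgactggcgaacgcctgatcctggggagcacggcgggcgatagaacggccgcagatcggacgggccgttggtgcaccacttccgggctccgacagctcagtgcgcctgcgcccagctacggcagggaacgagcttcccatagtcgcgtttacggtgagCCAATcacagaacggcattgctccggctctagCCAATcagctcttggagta
Mki67: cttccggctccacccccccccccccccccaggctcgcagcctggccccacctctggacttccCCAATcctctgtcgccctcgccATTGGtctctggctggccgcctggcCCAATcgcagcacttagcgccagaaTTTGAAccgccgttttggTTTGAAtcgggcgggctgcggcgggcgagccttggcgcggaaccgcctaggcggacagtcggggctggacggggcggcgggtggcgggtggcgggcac
Mcm5: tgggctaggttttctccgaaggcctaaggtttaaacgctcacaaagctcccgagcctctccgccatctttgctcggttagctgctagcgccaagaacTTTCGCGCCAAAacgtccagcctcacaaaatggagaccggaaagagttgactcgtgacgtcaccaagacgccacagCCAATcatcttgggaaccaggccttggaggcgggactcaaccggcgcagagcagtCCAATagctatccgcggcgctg
For the mitosis list 20 of 24 genes had a window, and CCAAT was present in 85.7% of their 21 windows against 33.8% of all 32851 windows. The homology region was present in 38.1% against 16%. In the other lists the share of windows with CCAAT ran from 7.69% for integrins and other adhesion genes to 70% for lipid synthesis genes. It was 57.1% for p53 targets, most of which were lower in fresh basophils. For the replication list 21 of 25 genes had a window, with an E2F match in 19.2% of 26 windows against 0.654% of all windows. These shares describe letters in the windows and are neither binding sites nor tests.

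Growth factors were more often lower than higher in fresh basophils, with 11 of 18 lower and 3 higher and a median of -0.58 (-0.45 with genes at background taken at their bound). Angpt1, a ligand of the endothelial receptor Tie2, was the clear exception. It read 1705, 1302 and 1464 on the fresh arrays and 255, 211 and 234 on the cultured arrays, without overlap (6.02-fold, 2.59 ± 0.12; limma, adjusted p = 3.27e-06). Vegfa, which drives vessel growth, read 127, 138 and 135 against 5232, 4831 and 4692, again without overlap, and was 32.999-fold lower in fresh cells. Its relative Vegfc was at background on the fresh arrays and read 308, 326 and 318 in culture (at least 10.6-fold). Pdgfa, a mitogen of mesenchymal cells, was 5.45-fold lower (45.9 against 322). Bmp4 (575 against 638) did not pass, and Ereg was at background on all arrays. Against floxed cultured basophils 7 growth factors were lower. Without fresh array 1 or 3, or cultured array 1 or 3, 1 growth factor was higher.

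Cytokine genes were also mixed, with 5 of 24 higher and 11 lower, where 20.1% and 20% of all genes were. Il4 and Il18 stood higher in fresh basophils, Il18 at 944 ± 50.9 against 206 ± 7.53 (4.32-fold). Il1a was dim in fresh cells and read 671, 664 and 722 in culture against 42.5, 51.8 and 50 (10.96-fold). Lif, of the interleukin-6 family, was 4.86-fold lower (152 against 806), as was Ebi3, a subunit of interleukins 27 and 35 (292 against 1846, 6.04-fold). The epithelial alarmin Tslp (122 against 107) and the regulatory cytokine Il10 (105 against 80.8) did not pass, although Il10 did at 0.41 without fresh array 1. A dimmer probe of Tslp was higher (48.5 against 11.8), and another was at background in both groups.

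Chemokine ligands moved both ways, with 12 of 20 lower in fresh basophils and 6 higher and a median of -1.36 (-1.10 with genes at background taken at their bound). The monocyte attractants were the most raised in culture. Ccl7 read 14.5, 31 and 39.2 on the fresh arrays and 3831, 3995 and 3951 on the cultured arrays (91.8-fold). Ccl2 read 253, 179.8 and 174 against 7030.2, 6564 and 7578 (32.8-fold) and Ccl12 203, 223 and 234 against 8684, 8172 and 7870 (34.99-fold). Ccl22, an attractant of type 2 and regulatory T cells, was 30.4-fold lower in fresh cells (34.1 against 1494). Ccl3, a main basophil chemokine, was bright in both groups (49993 against 46989, 0.09 ± 0.083) and did not pass, nor did Cxcl16 (78.7 against 89.1). The ligands higher in fresh cells, named after their values were seen, were Cxcl12 (568 against 76.3), Xcl1, Cxcl9, Cxcl2, Cxcl10 and Ccl4.

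Of 18 receptors for chemokines and other attractants 6 were higher and 7 lower, where 20.1% and 20% of all genes were, with a median of -0.23. With the floxed cultures as the cultured side 8 were higher and 4 lower, and the median turned to 0.21. Cxcr4, the receptor for Cxcl12 that holds leukocytes in the bone marrow, read 984, 950.4 and 1007 on the fresh arrays and 180, 175 and 193 on the cultured arrays (5.01-fold). The formyl peptide receptor Fpr2 was 4.28-fold higher. Cxcr2, a receptor for neutrophil-attracting chemokines, was 4.75-fold lower in fresh cells (1175 ± 29.04 against 5642 ± 273), and Ccr7, which guides cells to lymph nodes, was at background there and read 272, 252 and 324 in culture (at least 9.37-fold). Ccr1 (1221 against 1188) and S1pr1 (1067 against 1218) did not pass.

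Of 20 integrins and other adhesion genes, 4 were higher and 8 lower, where 20.1% and 20% of all genes were. The collagen receptor chains Itga1 (2.92-fold) and Itga2 (2.28-fold) were higher in fresh basophils. Itgae, the chain that binds E-cadherin, was 4.98-fold lower (168 ± 18.3 against 899 ± 32.6) and Itgb3 3.15-fold lower (1596 ± 206 against 5053 ± 579). The leukocyte chains Itgb7 (8546 against 7801) and Itgb2 (3756 against 4439.9) did not pass the test. Against wild type basophils cultured with the drug, 13 of these genes were lower.

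Genes known to respond to IL-3 and STAT5 were lower in fresh basophils in 12 of 20 cases and higher in 2, with a median of -0.57. Cish, a STAT5 target that dampens cytokine signalling, read 1311, 1501 and 1403 on the fresh arrays and 8329, 8259 and 7772 on the cultured ones, without overlap (5.73-fold; -2.52 ± 0.089). Socs1, another feedback inhibitor, was 3.21-fold lower, and the survival kinases Pim2 and Pim3 were 2.69-fold and 3.04-fold lower. The survival gene Mcl1 (19414 against 22228) and the kinase Jak2 (4461 against 4049.9) did not pass. Among 22 cytokine receptors 8 were higher and 10 lower, where 20.1% and 20% of all genes were. Kit, the stem cell factor receptor, read 294, 316 and 339 in fresh and 2437, 2567 and 2705 in cultured basophils (7.78-fold lower in fresh). Il2ra was 3.61-fold lower and Il10ra 3.40-fold lower, while Il17rb, a receptor for interleukin-25, was 3.34-fold higher. Il18r1 (3909 against 4140.5) and Il18rap (888 against 1030.1) did not pass at the probes displayed, although a second probe of Il18r1 was higher.

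Mast cell genes were higher in culture. Of 18 markers 12 were lower in fresh basophils and 1 was higher, with a median of -1.68 against -0.01 over all genes and sums of 26617 to 27991 against 46934 to 50743. Cma1, a connective tissue mast cell chymase, read 87.5, 102 and 100 against 9685, 10189 and 10279 (89.6-fold). Mcpt2, a mucosal mast cell protease, read 13.7, 14.3 and 13.9, at background, against 572, 525 and 691 (at least 19.7-fold). Tph1, the first enzyme of serotonin synthesis, read 1826, 1957 and 2024 in culture (at least 64.5-fold), and the sulfotransferase Hs6st2 599, 568 and 565 (at least 19.2-fold), both at background when fresh. The groups did not overlap for any of these, as for 51.6% of all genes, and these were picked as the largest called changes of the list. Srgn, the proteoglycan core of granules, did not pass the test (18229 against 18456, -0.02 ± 0.091). Probes of the receptors Mrgprb1 and Mrgprb2 and of the tryptase Tpsab1 were at background throughout.

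On 18 arrays normalized together, the cultured levels of mast cell genes stood below those of mast cells grown for 4 weeks, given here as a description. Cma1 averaged 86.4 in fresh basophils, 8788 in wild type cultured basophils and 27943 in mast cells. Kit averaged 280, 2225 and 16618 in the same order. The median log2 level of the 14 mast cell markers above background was 7.18 in fresh basophils, 10.49 in culture and 13.96 in mast cells.

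Of 21 genes of IgE receptor signalling and exocytosis 7 were lower, 1 was higher and 13 did not pass, against 40.1% of all genes called in either direction. None of the 8 called members reached a 2-fold difference. The number of higher members was 4 under median scaling or without normalization between arrays, 2 with the drug-treated wild type cultures and 5 with the floxed cultures, where 7 were lower. The adaptor Lat2 was 1.83-fold lower in fresh basophils (17696 ± 690.1 against 32408 ± 1399), and its dimmer second probe showed a larger difference in the same direction. The calcium channel Orai1 (1.64-fold) and the phosphatase Inpp5d (1.50-fold) were lower, and the adaptor Grb2 was 1.46-fold higher. Inpp5d was not called without normalization between arrays (-0.28), where 3 rather than 7 members of the list were lower. The adaptor Lat (6028 against 5509) and the fusion factor Stxbp2 (7924 against 8181) did not pass.

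Within the histamine and eicosanoid pathways, 4 of 19 genes were higher and 9 lower, where 20.1% and 20% of all genes were. Hdc, which makes histamine, read 21672, 21672 and 20353 and 22568, 23409 and 22423 and did not pass (-0.10 ± 0.081), and Alox5ap, which feeds arachidonic acid to 5-lipoxygenase, was likewise bright in both groups (31262 against 32637). Ltc4s, the synthase of leukotriene C4, read 255, 266 and 266 against 2964, 2692 and 2884 and was 10.3-fold lower in fresh cells. Genes that start and end prostaglandin signalling were among those higher. Ptgs2, the inducible cyclooxygenase, was 7.18-fold higher in fresh basophils (1485 ± 186 against 193 ± 21.6), and Hpgd, the prostaglandin dehydrogenase, read 1430.5, 1643 and 1581 against 18.7, 35.7 and 37.3 (34.2-fold), with a second probe also higher.

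**Figure D3:**
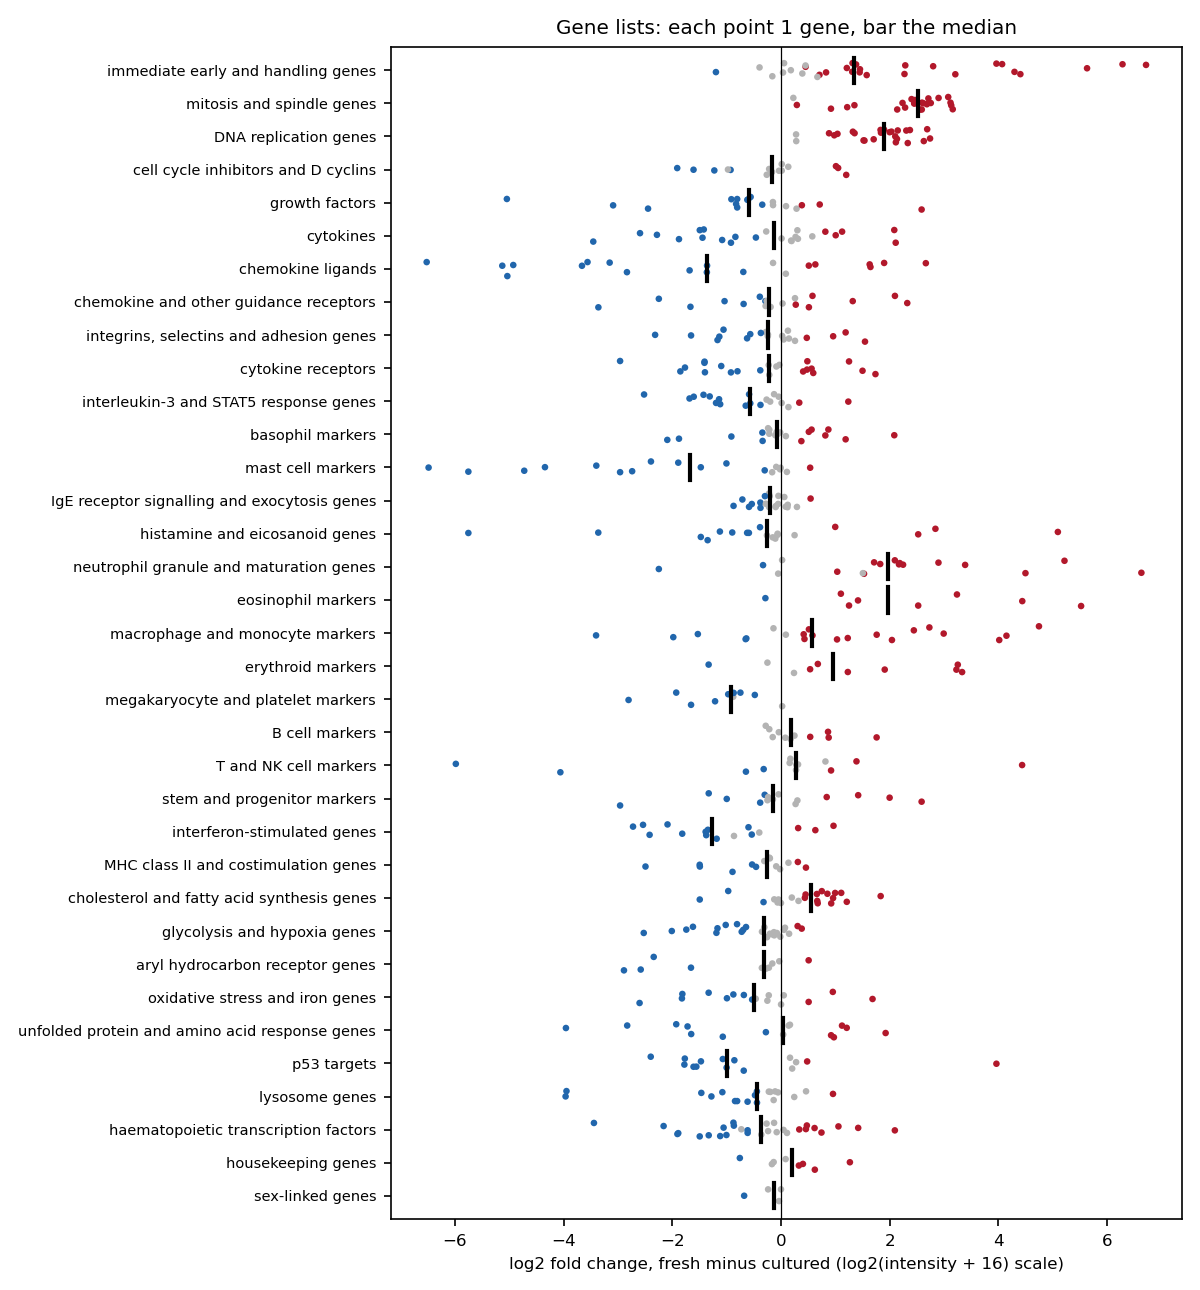
Log2 fold changes (x axis, fresh minus cultured) of the measured members of 35 gene lists (y axis). Each point is 1 gene, red where higher, blue where lower and grey where not past the test, and the black bar is the list's median; mitosis genes centre on 2.51 and mast cell markers on -1.68, and basophil markers lie near 0.

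Interferon-stimulated genes were lower in fresh than in cultured wild type basophils in 11 of 16 cases and higher in 3, with a median of -1.26. Isg15, a ubiquitin-like protein, read 635, 551 and 575 on the fresh arrays and 3378, 3494 and 3572 on the cultured arrays (5.81-fold, -2.54 ± 0.089). Usp18, which removes Isg15 from proteins, was 6.60-fold lower in fresh cells (263 ± 23.96 against 1826 ± 211), Ifit1 5.34-fold lower (253 ± 16.2 against 1421 ± 13.1) and the antiviral enzyme Rsad2 4.25-fold lower. Mx1 (141 against 189) did not pass, except at -0.54 without fresh array 1. Mx2 read 76, 936 and 59.3 on the fresh arrays and 108, 101 and 2726 on the cultured arrays, overlapping, and did not pass either.

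This list turned with the choice of cultured cells. Against wild type basophils cultured with the drug, 3 of the 16 genes were higher in fresh cells and 11 lower, but against floxed basophils cultured without the drug 11 were higher and 2 lower, with a median of 0.945. All 3 comparisons share the fresh arrays. Smaller medians also turned with the floxed cultures, from -0.36 to 0.03 for transcription factors of blood cells, from -0.15 to 0.08 for stem and progenitor markers, from -0.07 to 0.03 for basophil markers and from 0.21 to -0.10 for housekeeping genes. Over all genes, 21.7% were higher and 21.5% lower against treated wild type cultures, and 18% and 16.9% against floxed cultures. In the joint normalization of 18 arrays, Isg15 averaged 511 in fresh basophils, 3004 and 3229 in wild type cultures without and with the drug, 448 and 396 in floxed cultures and 62.4 in mast cells. The median log2 level of the list was 9.90 in wild type and 7.29 in floxed cultures without the drug, with fresh basophils between them at 8.67. The higher level was thus seen in the wild type cultures and not in every culture. Mitosis genes did not turn in this way, with a median log2 level of 9.70 in fresh basophils and 7.12 to 7.75 in the 4 cultured groups.

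**Figure D4:**
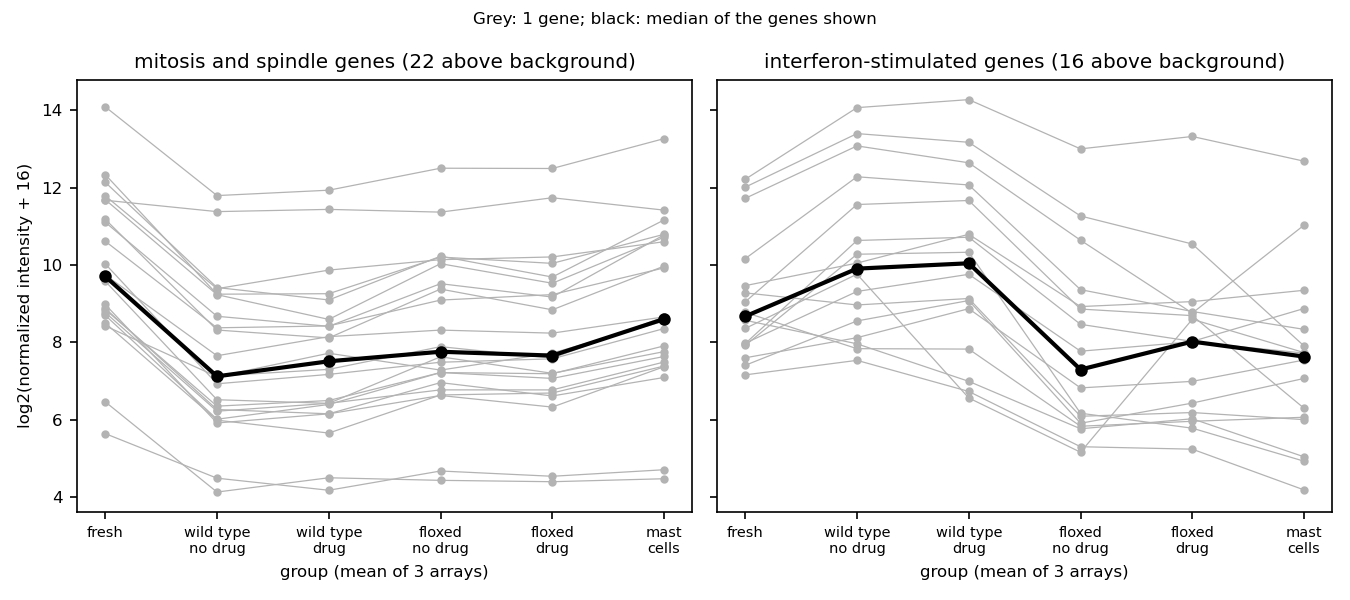
Log2 level (y axis, 18 arrays normalized together, mean of 3 arrays plus 16) of 22 mitosis genes (left) and 16 interferon-stimulated genes (right) in each of 6 groups (x axis). Grey lines are genes and the black line their median, which for mitosis genes is highest in fresh basophils at 9.70 and for interferon genes is higher in both wild type cultures than in fresh basophils and lower in floxed cultures.

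The promoters of Isg15 (chr4:156200819-156201068, minus strand) and Ifit1 (chr19:34640639-34640888, plus strand) are shown because both genes differed between the wild type and the floxed cultures in the list that turned. Capitals mark the interferon-stimulated response element, taken as GAAA and GAAA with any 2 bases between them, or its reverse complement, in overlapping runs for Isg15.
Isg15: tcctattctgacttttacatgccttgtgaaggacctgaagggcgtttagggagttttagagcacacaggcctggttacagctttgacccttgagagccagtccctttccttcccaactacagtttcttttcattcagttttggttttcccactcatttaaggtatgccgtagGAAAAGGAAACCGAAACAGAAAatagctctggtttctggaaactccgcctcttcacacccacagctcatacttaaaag
Ifit1: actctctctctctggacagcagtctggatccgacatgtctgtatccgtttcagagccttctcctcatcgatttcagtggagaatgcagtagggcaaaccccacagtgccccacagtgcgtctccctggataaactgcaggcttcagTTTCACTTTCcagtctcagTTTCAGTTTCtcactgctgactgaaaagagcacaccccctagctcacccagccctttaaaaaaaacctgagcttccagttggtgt
A promoter window was found for 11 of the 16 genes, and 58.3% of their 12 windows held this element against 2.98% of all windows.

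Of 14 antigen presentation genes 2 were higher and 6 lower, where 20.1% and 20% of all genes were, with a median of -0.26. With the drug-treated wild type as the cultured side, 2 were higher and 9 lower. The 4 members that moved furthest were ligands of costimulatory or inhibitory receptors on T cells. Pdcd1lg2, the second ligand of PD-1, read 548, 551 and 610.1 against 3255, 3341 and 3236 (5.63-fold lower in fresh cells), although a dimmer probe was higher. Cd274, the first ligand, was 2.81-fold lower and Icosl 2.82-fold lower. Tnfsf4 passed the test at low levels (4.72 against 23.5). Cd74, the invariant chain (1189 against 1197), and H2-DMb1 (1409 against 1625) did not pass at the probes displayed. A dimmer probe of Cd74 was lower (538 against 881), and another did not pass.

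Lipid synthesis genes were higher in fresh basophils in 13 of 22 cases and lower in 3, with a median of 0.56 (0.45 with genes at background taken at their bound). The fatty acid elongase Elovl6 was 3.57-fold higher (1019 ± 104 against 273 ± 9.06), the carboxylase Acaca 2.32-fold and the sterol sensor Insig1 2.16-fold. The desaturase Scd1 moved the other way (84.4 against 267, 2.82-fold lower). Cyp51 (350.4 against 303) and Msmo1 (892 against 891) did not pass.

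Glycolysis and hypoxia genes were lower in fresh basophils in 11 of 25 cases and higher in 2. The core enzymes Ldha (22718 against 20510) and Tpi1 (17169 against 17302) did not pass at the probes displayed, while dimmer probes of Ldha were higher. Aldoc, an aldolase, read 477, 524 and 547 against 2884, 3307 and 2944 (5.76-fold lower in fresh cells). The oxidoreductase Ero1a (4.02-fold), the collagen hydroxylase P4ha1 (3.34-fold) and Egln1, an oxygen sensor (at least 2.65-fold), were lower too. Against floxed cultures 17 of the 25 were lower.

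Genes of the aryl hydrocarbon receptor, a sensor of plant and tryptophan-derived ligands, were few but some moved far, with 4 of 10 lower in fresh cells and 1 higher. Ahrr, the repressor of the receptor, read 68, 73.7 and 75.7 against 471, 450.5 and 380 (5.07-fold). Cyp1b1 was at background when fresh and read 272, 276 and 256 in culture (at least 8.93-fold). Lpxn (5.98-fold) and Tiparp (3.15-fold) were lower as well, Tiparp only at the brighter of its probes. Ahr itself (46.7 against 54.1) and its partner Arnt (344 against 419) did not pass, although Arnt did at -0.32 without fresh array 1. The member counted as higher was lost without fresh array 1 or 2 or cultured array 1, when 0 were higher. With the drug-treated wild type as the cultured side 7 were lower and 0 higher.

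Of 16 oxidative stress and iron genes 8 were lower and 3 higher. The cystine transporter Slc7a11 read 56.8, 60.5 and 72.7 against 463, 470 and 459 (6.07-fold lower), Srxn1 was 3.54-fold lower and Osgin1 3.52-fold lower. Gsr, glutathione reductase, was higher (3.22-fold), with fresh arrays spread over 1947, 1113 and 1203. Txnrd1 (2809 against 3346) and Gclc (606 against 600.1) did not pass. Of 15 unfolded protein and amino acid response genes 5 were higher and 7 lower, where 20.1% and 20% of all genes were. The amino acid response genes Trib3 (101 ± 4.77 against 1799.6 ± 34.3, 15.5-fold lower), Atf5 (7.11-fold lower) and Ddit3 (3.80-fold lower) fell on one side and the endoplasmic reticulum protein Sdf2l1 on the other (3.80-fold higher). Atf4 (11624 against 11355) and Xbp1 (27919 against 25270) did not pass.

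Of 15 p53 targets 10 were lower in fresh basophils and 2 higher, with a median of -0.99972. The death receptor Fas was 3.41-fold lower (78.2 ± 6.90 against 305 ± 8.93), the RNA-binding protein gene Zmat3 3.43-fold lower and Phlda3 at least 3.61-fold. Btg2, also among the immediate early genes, was the outstanding member in the other direction. Perp (6891 against 5981) and Eda2r (39.7 against 34) did not pass. Lysosome genes were lower in 11 of 19 cases and higher in 1. The cysteine protease Ctsl read 1106, 1127 and 1076 against 15122, 19814 and 17699 (15.6-fold lower), although a dim second probe was slightly higher. Gpnmb, a glycoprotein of stressed lysosomes, was 15.4-fold lower, Ctsz 2.76-fold and Ctsd 2.43-fold. Ctsb (11186 against 13011) and Cd63 (65470 against 56504, at the top of the scanner range) did not pass. A dimmer probe of Cd63 was higher (518 against 333), while that of Ctsb did not pass.

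Among 29 transcription factors of blood cells, 8 were higher and 13 lower in fresh basophils, where 20.1% and 20% of all genes were. Cebpe, a factor of late granulocyte maturation, read 1029, 839.6 and 905 against 190, 198 and 222 (4.28-fold higher). Irf4 read 41.2, 22.2 and 26 against 519, 499.8 and 410.3 (10.9-fold lower). Gata3 was 3.75-fold lower (41.4 ± 3.56 against 199 ± 9.82) and Tfec, a relative of Mitf, 4.47-fold lower (99.4 ± 7.35 against 499 ± 6.29). The factor Ets1 (23092 against 29465) did not pass, except at -0.46 without fresh array 3. Of 15 stem and progenitor markers 4 were higher and 5 lower, where 20.1% and 20% of all genes were. Myb (4.002-fold) and Lmo2 (2.68-fold) were higher beside Angpt1, and Kit was lower. Without fresh array 1 or cultured array 3, 3 of the 15 markers were lower. Prom1 (239 against 286) did not pass.

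Of 8 housekeeping genes, 4 were higher and 1 lower, with a median of 0.21. Gusb was 2.41-fold higher, Sdha 1.54-fold and Hprt 1.32-fold, and B2m, which also belongs to antigen presentation, was 1.69-fold lower in fresh cells. Tbp (552 against 622) and Ywhaz (1908 against 2091) did not pass. Transcripts of the sex chromosomes did not separate the groups clearly. Xist read 86.9 against 148 (1.60-fold lower), and the Y-linked genes Eif2s3y (165 against 167) and Uty (146 against 175) did not pass. With the floxed cultures as the cultured side, all 4 sex-linked genes of the list were lower in fresh cells.

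Fos, Aurka, Angpt1, Adgre1 and Cebpa, which were chosen for the comparison, were also read in the other groups of the series, on 18 arrays normalized together and without a test. Fos averaged 17942 in fresh basophils, 1001 and 1926 in wild type cultures without and with the drug, 257 and 595 in floxed cultures and 6.19 in mast cells, the last at background. Aurka averaged 795 in fresh basophils, 387 in mast cells and 124 to 220.2 in the 4 cultures. Angpt1 was nearly as high in mast cells (1047) as in fresh basophils (1281), and lay between 208 and 436 in the cultures. Adgre1 was highest in floxed cultures without the drug (6139) and lowest in mast cells (232). Cebpa averaged 2244 in fresh and 2369.5 in wild type cultured basophils, 983 in floxed cultures without the drug and 65.5 with it.

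Levels of some genes at the extremes are given over the same 6 groups. Arg1 averaged 11120 to 23525 in the 4 cultured groups, 9.80 in fresh basophils and 28.4 in mast cells, so that among the 6 groups it was bright in the cultured basophils alone. Mpo averaged 32766 in fresh basophils and 98.9 to 1495 in the cultures. Cma1 and Tph1 were brightest in mast cells, with Cma1 nearly as bright in treated floxed cultures (26829 against 27943).

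**Figure D5:**
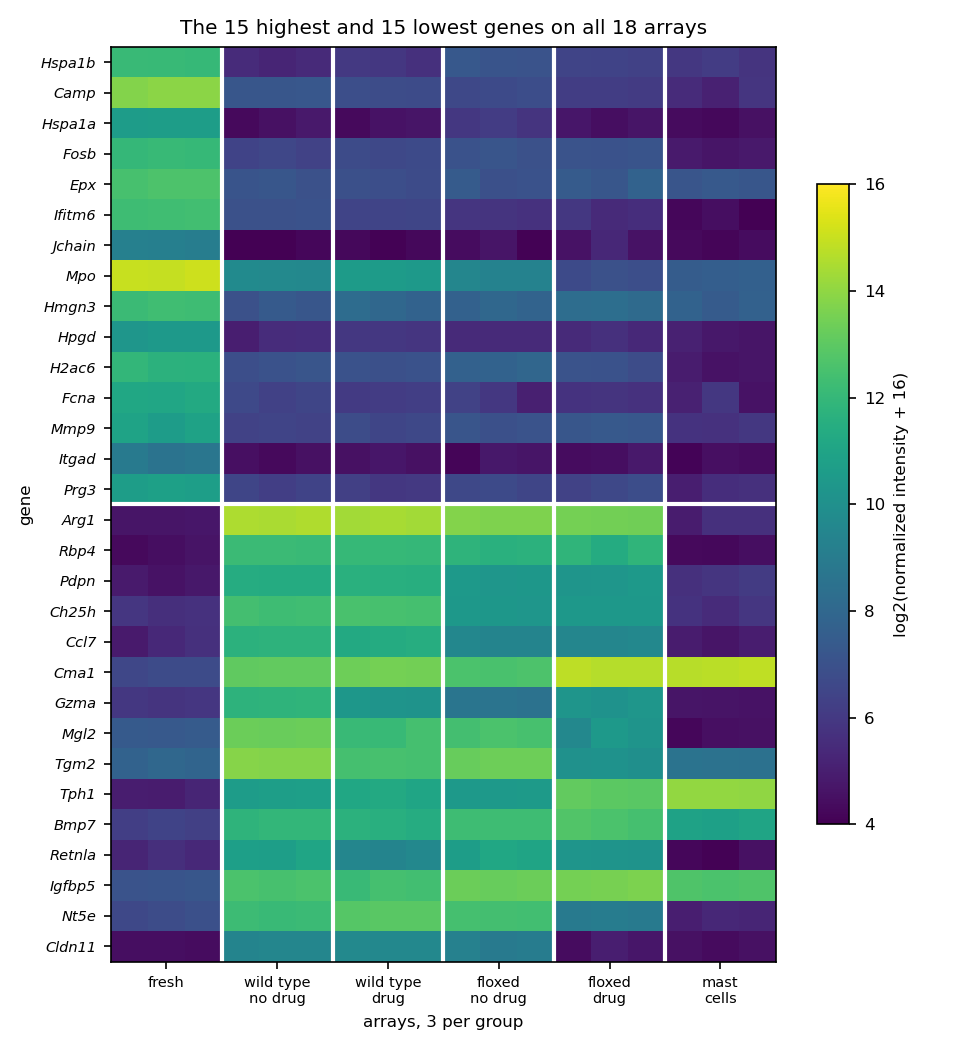
Log2 level (colour, 18 arrays normalized together, plus 16) of the 15 highest (upper block) and 15 lowest genes (lower block) on 3 arrays of each of 6 groups (x axis). The upper genes are bright on the fresh arrays and dim elsewhere except Mpo, and the lower genes are dim on the fresh arrays and bright in the wild type cultures; Cma1, Tph1, Bmp7 and Igfbp5 are bright in mast cells too.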

How the data were processed

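Per the labels' protocols, total RNA was prepared with Trizol and a silica column kit and coupled to a cyanine dye for 1-colour microarrays. The authors deposited a linear intensity for each probe, from which background had been subtracted, since some values lie below 0. Scanner software and any earlier normalization were not given in the sources used here. Probes were named from the platform annotation, in which 21876 of 26423 probes had 1 gene symbol and 4547 had none, for 19084 genes. A gene with several probes is represented by the probe with the highest mean log2 value over 18 arrays, and 57 of 1108 called genes with several probes had another probe called the other way. No column of values was left unused.

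Intensities were quantile normalized over the 6 arrays, an offset of 16 was added, and a linear model of the log2 values was fitted with lmFit and eBayes of limma 3.58.1 (R 4.3.3), with two-sided tests and Benjamini-Hochberg adjustment over all probes. The limit of 30 for background was chosen after the data were seen. A bound raises each value to that limit before means are taken. The members, the 35 gene lists and the tests were chosen with earlier results of these data known. Named genes were Fos, Aurka, Angpt1, Adgre1 and Cebpa, the 15 highest and 15 lowest fold changes among called genes without overlap, and in each list up to 4 called members by size of change and up to 2 of the brightest members not called. Other names were chosen after their values were seen.

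No pair of arrays held identical values. Deviations from group means correlated at -0.0842, 0.1025 and -0.1036 between arrays with the same replicate number, so no pairing by number was seen. Whether arrays with the same number had a common origin is not stated. The fit was tested on simulated intensities of 26423 probes for this comparison. It recovered 43.3% of changes of 0.5 log2 units, 89.6% of changes of 1 and 98.5% of changes of 2, and made 7 false calls. These changes were given to 67, 67 and 66 probes, all of them bright, with increases and decreases in equal number. The comparison itself called 35.7% of probes, dim ones included, so these rates may not hold for it. Alternatives were other scalings, filters on dim probes, an offset of 50, an intensity trend, all 18 arrays, the replicate block, averaged probes, a 2-fold threshold, other cultured groups and each array left out.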

Additional observations from a re-analysis of the deposited data

How the results depend on the processing

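Of 9438 probes called, 2676 also differed at least 2-fold. The count of lower probes was 4719 in the reported fit and 3140 without normalization between arrays. Leaving out each array in turn gave 8202 to 8592 calls, 4163 to 4332 higher and 4015 to 4260 lower. With the replicate block 8623 probes were called, although no pairing by replicate number was seen. Of 151 genes named by rule that were called, 149 kept call and direction under the 16 settings that used the same cultured group. The exceptions were Inpp5d and Rag1. Under all 18 settings 142 were kept, where Ccnd1, Orai1, Isg15, Ifit1, Rsad2, Sdha and Hprt also changed. Here and below, a gene that a filter on dim probes removed was counted as unchanged under that filter. With floxed basophils cultured without the drug in place of the wild type, the log2 fold change turned for Cebpa (1.17), S1pr1 (0.68), Il18r1 (1.50), Vpreb3 (1.48), Isg15 (0.19), Ifit1 (1.84), Rsad2 (0.83), Mx1 (1.93) and Hprt (-0.0497). Of these, Isg15 and Hprt did not pass the test there (limma, adjusted p = 0.201 and 0.762), so that they lost their call. With wild type basophils cultured with the drug the log2 fold change turned for Jak2 (-0.28), Axl (0.65), Mx1 (0.41) and Eif2s3y (0.53), and with probes averaged per gene for Il18r1 (0.30) and Axl (1.62). Of 21 genes named after their values were seen, 18 kept call and direction under all 18 settings, while Mcpt8 and H1f2 lost their call in some and Clec10a turned (0.59) with the drug-treated wild type. The floxed and treated groups are other samples, and for the remaining differences the cause was not tested. Signal over background limits dim genes, since 6161 of 19084 genes were at background in both groups.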

Other observations

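Some genes known from alternatively activated macrophages were among those raised in culture, and 20 of them were listed after values had been seen. The list includes Arg1, Mgl2, Tgm2, Retnla and Ch25h, already picked above for their low fold changes. Its count and median were thus partly set by the choice. They are a description only and cannot be weighed against the shares of all genes. In fresh basophils 17 were lower and 3 higher, with a median log2 fold change of -2.999. Beyond Arg1, Mgl2, Tgm2 and Retnla, the list held Il4i1, an amino acid oxidase, at 54.8, 51 and 58.7 on the fresh arrays and 1707, 1535 and 1700.2 on the cultured arrays (23.5-fold). The chemokine Ccl17 read 129, 169 and 136 against 1855, 2026 and 1742 (11.8-fold), and Ccl24 read 365, 365 and 346 in culture with fresh arrays at background (at least 11.9-fold). The arginine transporter Slc7a2 was at background when fresh and read 214, 239.7 and 248 in culture (at least 7.78-fold). The groups did not overlap for any of these, as for 51.6% of all genes. The lectin receptors Clec7a (2016 ± 117 against 5675 ± 130.1, 2.80-fold) and Clec10a (1028 ± 76.9 against 2213 ± 283, 2.13-fold) were lower by less. Mrc1 was lower by less still (1876 ± 342 against 2947 ± 488, 1.57-fold). Clec10a turned to 0.59 (limma, adjusted p = 0.00156) with the drug-treated wild type as the cultured side. Of the others, Fn1, Egr2 and Cd209a were the members higher in fresh cells, Cd209a at levels under 30.

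Histone genes whose transcripts accumulate in S phase moved with the replication genes. Of 28 such genes found by symbol after values had been seen, 24 were higher in fresh basophils and 1 was lower, with a median of 1.62. H3c8 read 1197, 1099.7 and 1129 on the fresh and 81.8, 92.8 and 85 on the cultured arrays (11.3-fold), H2ac8 read 4068, 3704 and 3537 against 433, 398 and 414 (8.77-fold), and H2ac4 was 7.97-fold higher. H1f2, a linker histone, was the member lower (14729 ± 473 against 20192 ± 578, 1.37-fold). Members of the family are similar in sequence and their probes may share transcripts, so they are not independent of one another.

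Some genes switched between background and clear signal. In each direction 39 genes exceeded an intensity of 100 on all 3 arrays of a group and were at background on all 3 arrays of the other.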
